A study of Mus musculus with 9 samples.

Results

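The genes of the cytosolic ribosomal proteins were described at every probe set that the platform annotation gives exactly 1 symbol of the Rpl or Rps series, with Rplp0, Rplp2 and Rpsa. The kinases of ribosomal protein S6 (Rps6k) were left out. A probe set is a group of short probes whose signals were summarised to 1 value. The rule took 100 of the 22690 probe sets. They belong to 48 of the 12393 genes that the arrays name at probe sets with 1 symbol. These are 22 of the large subunit, 20 of the small subunit and 6 paralogs or related genes (Rpl22l1, Rpl7l1, Rpl3l, Rpl39l, Rps27l and Rps4l). Of the 100, 84 probe sets of 45 genes passed the filter on low signal and were tested, and 16 did not. Rplp1, Rpl3 and Rpl5 had no probe set that met the rule. A further 102 probe sets carry several symbols, at least 1 of which is of this kind, and were not counted as members.

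Every sample was total RNA of lung from mice of strain FVB/N, labelled with biotin and hybridised to an Affymetrix mouse array (MOE 430A). The study asked what more of the normal human CFTR does to the lung, and all mice kept both alleles of their own Cftr (the genotype field is empty for WT replicate 3). The 3 wild-type arrays (WT) carried no transgene, the 3 HE arrays came from mice with SP-C-hCFTR+|- (1 transgenic allele) and the 3 HO arrays from mice with SP-C-hCFTR+|+ (2 alleles). The transgene is a human CFTR cDNA driven in respiratory epithelial cells of adult mice by the promoter of Sftpc, the surfactant protein C gene, and those cells are 1 of several sources of lung RNA. HO replicate 2 is homozygous by its title and genotype field, while its description writes 1 allele. No label ties an array to an animal of its own: p-values therefore measure only how far these samples spread, which may be technical. In lung RNA, fewer cells of a type and less RNA per cell cannot be told apart.

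Ribosomal proteins assemble with ribosomal RNA into the small subunit, which reads the messenger RNA, and the large subunit, which joins the amino acids. Their messenger RNAs are abundant in nearly every cell. They typically begin with an unbroken run of pyrimidines, the terminal oligopyrimidine tract, through which mTOR signalling controls their translation, and their promoters often carry sites for ETS-type factors. Several members have a paralog of narrower or different use, such as Rpl3l of heart and skeletal muscle, Rpl39l of testis and Rps27l, a target of p53.

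The pyrimidine tract is a sequence feature that many of these genes share, and the bases around the start are shown for members that the results name. Promoters were found in a RefSeq table (GRCm38.p6) for 42 of the 48 genes. Each line gives 30 bases, 15 before the annotated start and 15 from it on, and capitals mark a run of 7 or more C or T that reaches into the 5 bases to either side of the start.
Rps6, chr4:86857353-86857382, minus strand: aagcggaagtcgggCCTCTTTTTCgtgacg
Rps10, chr17:27635230-27635259, minus strand: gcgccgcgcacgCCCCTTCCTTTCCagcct
Rps27, chr3:90213634-90213663, minus strand: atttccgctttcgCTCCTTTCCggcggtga
Rplp2, chr7:141447636-141447665, plus strand: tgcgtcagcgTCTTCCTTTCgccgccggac
Rpl35, chr2:39005117-39005146, minus strand: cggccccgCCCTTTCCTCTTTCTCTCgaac
Rpl13a, chr7:45128731-45128760, minus strand: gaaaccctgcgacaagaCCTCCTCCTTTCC
Rpl37a, chr1:72711245-72711274, plus strand: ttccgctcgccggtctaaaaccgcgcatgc
Rpl41, chr10:128549154-128549183, minus strand: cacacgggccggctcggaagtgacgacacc
Rps28, chr17:33824548-33824577, minus strand: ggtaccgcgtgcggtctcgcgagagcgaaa
Rplp0, chr5:115559452-115559481, plus strand: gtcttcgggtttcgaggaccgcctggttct
Such a run was found in 21 of the 42 member genes with a promoter (50%), against 15.7% of the 27025 genes of the table. The run is 13 bases long in Rps10, 18 in Rpl35 and 9 in Rps27. The lines of Rpl37a, Rpl41, Rps28 and Rplp0 have no capitals because no such run lies at the annotated start. Annotated starts can differ: 73.4% of genes had a promoter whose start was the gene start in the RefSeq gene table. A run at another start would be missed, so a line without capitals does not show that the tract is absent. The letters CCGGAAG, the core of an ETS site, whose reverse complement is rich in pyrimidines and can overlap such a run, were found on either strand of the window from 250 bases before to 50 after the start in 21 of 42 member genes (50%) and in 9.93% of all genes. AAGATGGCG, which contains the core of a YY1 site, was found on either strand of that window in 3 of 42 (7.1%), against 1.64% of all. These matches describe the letters and are no evidence that a factor binds.

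Median signal was 697 to 742 over the 9 arrays, whose number limits the precision. Of the 8 genes listed as markers of alveolar type II cells, the main site of Sftpc, 7 were on the array. Their summed signal was 213469 to 265252 in WT, 229670 to 251667 in HE and 235975 to 265008 in HO, and no probe set of theirs was at the floor on every array. As a sign of RNA quality, control probe sets at the 3' end were at 1.07 to 1.39 times those at the 5' end for Actb, and at 0.768 to 0.885 times for Gapdh.

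Member probe sets gave some of the strongest signals of the arrays. Values are given as log2 of the deposited intensity. Over the 84 tested, the mean over 9 arrays ran from 8.96 to 15.50, with a median of 14.16 against 10.58 for all 13576 tested probe sets. Of the 227 probe sets with the highest mean, 36 were members (15.9%), and 45 more were those with several symbols. A signal depends on the probes as well as on the transcript, so no order of transcript levels between genes is read from it. By the ending of their identifiers, 40% of member probe sets (40 of 100) were of the _x_at kind, which marks probes that may also bind other transcripts, against 6.68% of all probe sets. Ribosomal protein genes have many processed pseudogenes, so the source of such a signal is uncertain.

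No member passed an adjusted p of 0.05 with limma in any of the 3 comparisons. In HO against WT, 0 of 84 passed (0% of all tested probe sets), with a lowest adjusted p of 0.602, which was also the lowest of all probe sets. At an unadjusted p under 0.05 there were 3 members (3.57%), against 4.49% of all probe sets, and all 3 were higher in HO, as 1.69% of all were. These were Rpl37a 1416218_x_at, Rpl7 1426163_x_at and Rps10 1439374_x_at. HE against WT again gave 0 of 84 (0%), and 2 at an unadjusted p under 0.05 (2.38%, against 3.11% of all): Rpl37a 1416218_x_at was higher (1.19% of all were) and Rps27 1460699_at was lower in HE (1.92% of all). In HO against HE, 0 of 84 passed (0%) and 3 had an unadjusted p under 0.05 (3.57%, against 2.56% of all). They were Rps10 1439374_x_at, Rpl13a 1433928_a_at and Rpl27 1416099_at, all higher in HO, as were 1.16% of all.

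Few members had groups of arrays without overlap. HO and WT did not overlap at 4 of 84 members (4.76%), against 8.88% of all tested probe sets. They were Rpl37a 1416218_x_at, Rps10 1439374_x_at, Rpl7 1426163_x_at and Rpl13a 1433928_a_at. HE and WT did not overlap at Rps27 and Rpl37a only (2.38%, against 7.7%). HO and HE did not overlap at 7 members (8.33%, against 6.66%): Rpl27a 1437729_at, a pair of Rps24 probe sets, Rpl7 1426162_a_at, Rpl13a 1433928_a_at, Rpl37a 1416218_x_at and Rpl27 1416099_at.

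The differences were small for most members, and the intervals bound them. The log2 difference was under 0.25 in size at 78 of 84 members in HO against WT, at 79 in HE against WT and at 76 in HO against HE. These counts were not taken over all tested probe sets, so they do not set the members apart. The median standard error was 0.15 for members and 0.16 for all probe sets, and a typical 95% interval reached 0.34 to either side. That interval lay within 0.5 of 0 at 57 members (67.9%) in HO against WT, where it did so at 54.3% of all probe sets. The counts were 63 (75%, against 57.3%) in HE against WT and 56 (66.7%, against 58.4%) in HO against HE.

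**Figure D1:**
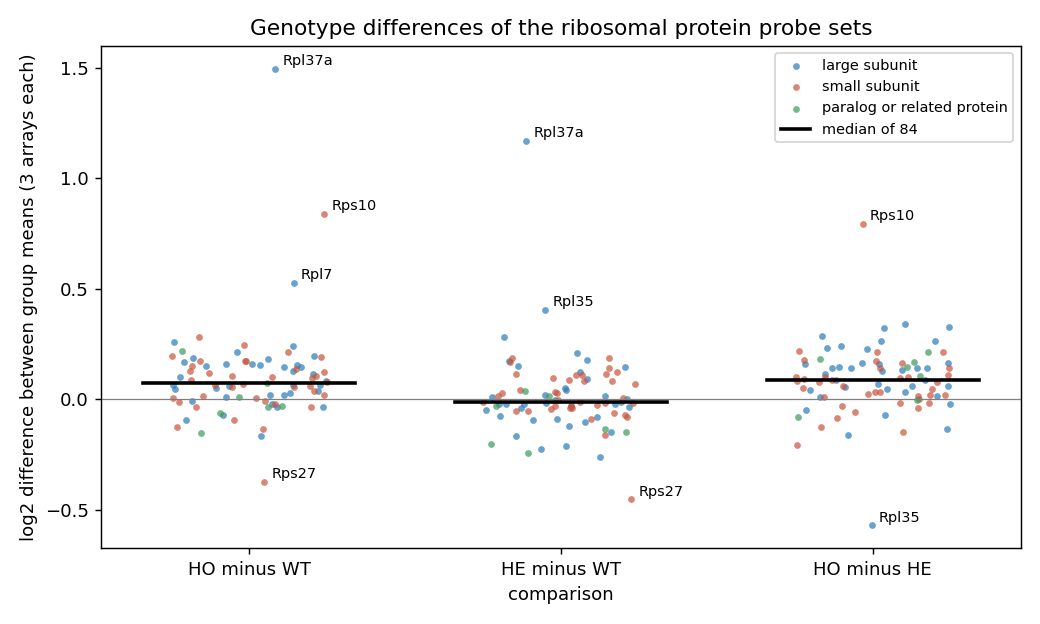
Log2 difference between group means (3 arrays each) of the 84 tested member probe sets in each comparison, coloured by subunit, with the median as a black bar. Nearly all points lie close to 0, and Rpl37a at 1.50 and 1.17, Rps10 at 0.84 and 0.80, and Rpl35 at -0.57 stand farthest out. HO minus WT and HE minus WT share the WT arrays, and HO minus HE shares its arrays with both.

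Without regard to any threshold, more members were above than below 0 in both comparisons of HO. In HO against WT, 64 of 84 were higher (76.2%, against 48.8% of all tested), with a median difference of 0.072, and of -0.0047 for all. In HO against HE, 67 were higher (79.8%, against 51.4%), with a median of 0.085, and of 0.0054 for all. In HE against WT, 38 were higher (45.2%, against 47.8%), with a median of -0.014, and of -0.0075 for all. Single arrays moved these counts. Without WT replicate 3, 35 of 84 were higher in HO than in WT and the median was -0.035. HE against WT gave 18 higher without WT replicate 3 and 66 without WT replicate 2. With HO replicate 2 counted as HE, as its description would have it, 30 of 84 were higher in HO than in HE and the median was -0.032, while 58 were higher in HE than in WT. They also moved with the scaling: quantile normalization gave 65.5% higher in HO against WT, 41.7% in HE against WT and 63.1% in HO against HE, and median centring gave 89.3%, 67.9% and 81%. The 89 tested probe sets with several symbols had medians of 0.11, 0.014 and 0.076 in the same order of comparisons, and 0 passed an adjusted p of 0.05 (3, 0 and 1 at an unadjusted p under 0.05).

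The counts were also taken by subunit. In HO against WT, 31 of 38 tested probe sets of the large subunit were higher, with a median of 0.090, and 30 of 39 of the small subunit, with a median of 0.079. Of the 7 of the paralogs and related genes, 3 were higher, with a median of -0.030. In HE against WT, the medians were -0.020 for the large subunit, 0.0049 for the small subunit and -0.13 for the paralogs. In HO against HE they were 0.13, 0.059 and 0.15. Taking only the probe set of highest mean for each gene gave medians of 0.079, -0.021 and 0.085 over the 45 genes, for HO minus WT, HE minus WT and HO minus HE.

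The members deviated from their means together, array by array. As a deviation of each probe set from its own mean over the 9 arrays, the member median was 0.013, 0.16 and -0.26 on WT replicates 1, 2 and 3. It was 0.075, -0.051 and -0.089 on the HE arrays and 0.037, 0.20 and -0.060 on the HO arrays. WT replicate 3 was thus the lowest array and HO replicate 2 the highest, and the 3 genotypes overlapped. The median over all probe sets lay between -0.0032 and 0.020 on every array. WT replicate 3 was the lowest of the 9 arrays for 54 of 84 members (64.3%), but for 10.1% of all tested probe sets. HO replicate 2 was the highest for 37 members (44%, against 15.1% of all) and WT replicate 2 for 26 (31%, against 11.5%). The large and small subunits followed the same course, at -0.24 and -0.28 on WT replicate 3 and 0.23 and 0.20 on HO replicate 2.

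**Figure D2:**
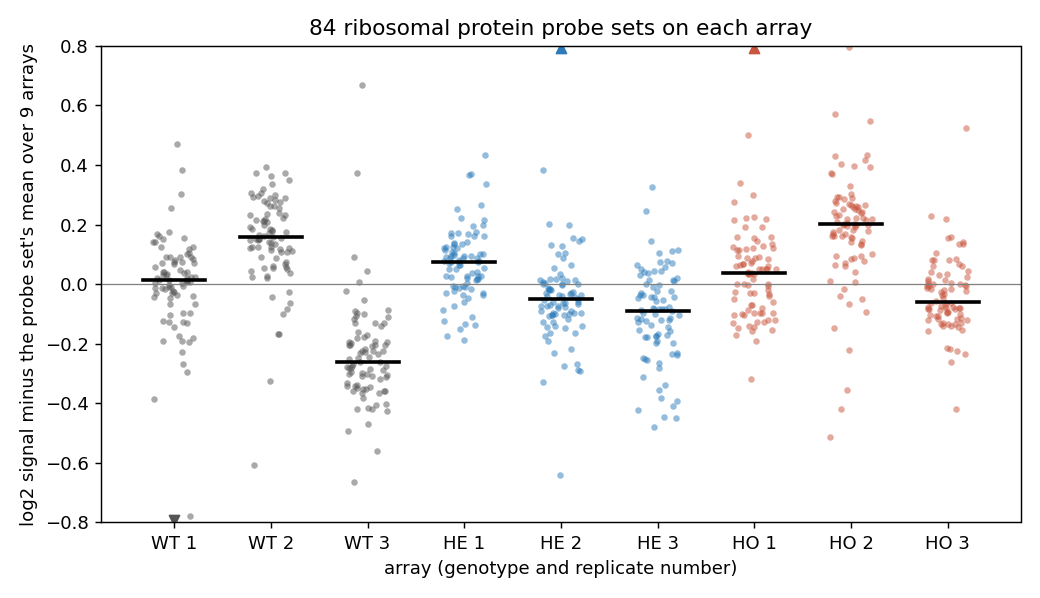
Each of the 84 tested member probe sets on each array, as log2 signal minus the probe set's mean over the 9 arrays; black bars are medians, and triangles mark points beyond 0.8. The cloud of WT replicate 3 lies lowest, with a median of -0.26, and those of WT replicate 2 (0.16) and HO replicate 2 (0.20) lie highest, while the genotypes overlap.

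The top of the signal range, to which members themselves belong, moved with the member median. Of the 227 probe sets of highest mean, 36 were members and 45 more were those with several symbols. The top of the range is therefore no independent reading, nor is its removal by quantile normalization. The 99th percentile of signal was 18370 on WT replicate 3, against 19725 to 21665 on the other 8 arrays, the highest being HO replicate 2. With quantile normalization, which gives every array the same distribution, the member median was -0.11 on WT replicate 3, 0.11 on WT replicate 2 and 0.10 on HO replicate 2. Members with a mean log2 of 13 or more, a bound chosen after the values were seen, were lowest on WT replicate 3 in 50 of 60 cases, and those under 13 in 4 of 24. These shares were not taken over all tested probe sets of like signal. Whether this was a trait of the members or of strong signals on that array was therefore not tested. Cell type markers moved as well. On WT replicate 3 their median deviation was -0.19 for the alveolar type II list and -0.26 for the club and ciliated list. It was 0.10 for the endothelial list. Among the other lists it was -0.49 for neutrophils, -0.23 for red cells (1 tested probe set) and -0.076 for alveolar type I cells. Cardiac muscle was at -0.054 and macrophages at -0.040, while proliferating cells were at 0.21, T cells at 0.17 and B cells at 0.13. The part of these in the low members on WT replicate 3 was not tested.

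**Figure D3:**
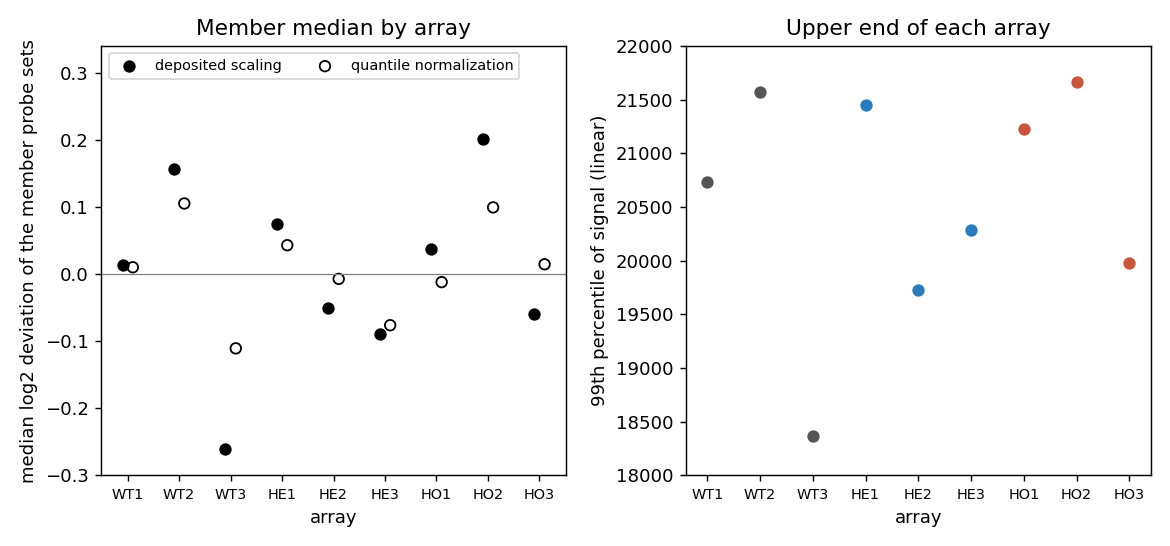
Left, the median log2 deviation of the 84 tested members on each array under the deposited scaling (filled) and after quantile normalization (open); right, the 99th percentile of linear signal on each array, on an axis that does not start at 0. WT replicate 3 is lowest in both panels, at -0.26 and 18370, and its median is -0.11 after quantile normalization. Members are among the strongest signals, so the panels are not independent.

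The replicate numbers of the titles also part the source names, which begin with 3, 9 or 11 for numbers 1, 2 and 3. In a model with genotype, 80 of 84 members were lower at number 3 than at number 2, with a median of -0.23, where 48.3% of all probe sets were lower and their median was 0.0080. Number 3 was below number 1 at 76 members (median -0.16, and -0.00052 for all probe sets). Number 2 was above number 1 at 61 (median 0.076, and -0.00090 for all). The shares of all probe sets were not taken for this pair of contrasts. An F test over the numbers passed an adjusted p of 0.05 at 0 of 84 members, against 0.0147% of all (2 of 13576), with limma. At an unadjusted p under 0.05 it gave 7 members (8.33%, against 12% of all). The lowest p belonged to Rps15 1416088_a_at, at 13.57, 13.67 and 13.86 on the number 3 arrays (WT, HE and HO) and 14.10, 13.96 and 14.38 on those of number 2, with an unadjusted p of 0.0149 and an adjusted p of 0.35. The others of lowest p were Rps27l 1423254_x_at, Rps10 1438723_a_at and 1439374_x_at, Rps27 1460699_at and Rpl11 1417615_a_at. Not all went the way of most members. Rps27 was higher at number 3 than at number 1, by 0.28. Rps27l 1423254_x_at and Rps10 1439374_x_at were lower at number 2 than at number 1, at -0.30 and -0.47.

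Compared within a number, the member median of HO minus WT was 0.019 at number 1, 0.024 at number 2 and 0.22 at number 3. HE minus WT gave 0.043, -0.24 and 0.15, and HO minus HE gave -0.030, 0.26 and 0.069. The sign of the last pair of comparisons thus changed with the number, and the HO minus WT median was over 0.1 at number 3 alone.

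Among the proteins of the large subunit, Rpl37a held the largest difference. Rpl37a, a zinc-binding protein, had 3 tested probe sets. At 1416218_x_at the signal was 8.51, 9.61 and 9.86 on the WT arrays, 10.58, 10.37 and 10.54 on HE and 10.72, 11.01 and 10.74 on HO. All transgenic arrays were above all WT arrays, and by their titles HO was above HE. HO was at 2.82 times WT, which is 1.50 ± 0.28 in log2 (SE throughout, 3 arrays in each group) with a 95% interval of 0.88 to 2.11. It ranked 2nd of 13576 probe sets by p, with an adjusted p of 0.602 by limma. HE was at 2.25 times WT, 1.17 ± 0.28 (interval 0.55 to 1.79), ranked 8th, with an adjusted p of 0.9997. HO minus HE was 0.33 ± 0.28 (interval -0.29 to 0.94, unadjusted p = 0.268 by limma). With HO replicate 2, the highest array, counted as HE, HO minus HE was 0.10 and the groups overlapped. WT replicate 1 was the lowest array, and without it HO minus WT was 1.09 and HE minus WT 0.76. Within numbers 1, 2 and 3, HO minus WT was 2.21, 1.40 and 0.88.

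The other Rpl37a probe sets did not share that course. At 1416217_a_at the signal was 14.82, 15.00 and 14.56 on WT, 14.85, 14.82 and 14.70 on HE and 14.84, 15.22 and 14.79 on HO. At 1460543_x_at it was 14.75, 14.97 and 14.43 on WT, 14.94, 14.84 and 14.88 on HE and 14.92, 15.24 and 14.63 on HO. The groups overlapped at both, and HO minus WT was 0.16 ± 0.16 and 0.21 ± 0.18. The log2 difference at 1416218_x_at exceeded that at 1460543_x_at by 1.28 ± 0.32 in HO against WT, with an unadjusted p of 0.0017 and an adjusted p of 0.796 over 4292 pairs (limma). The signal at 1416218_x_at was that of the weakest of the 3 on every array.

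**Figure D4:**
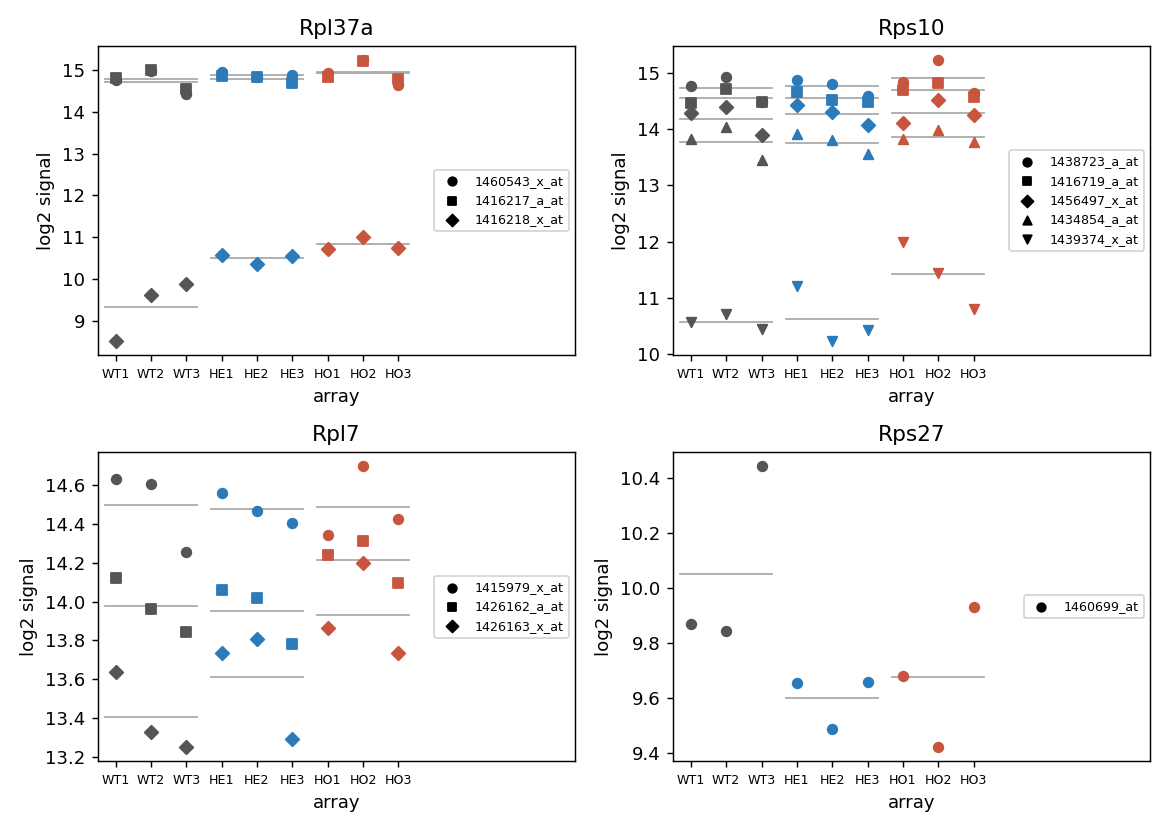
Log2 signal of every tested probe set of Rpl37a, Rps10, Rpl7 and Rps27 on each of the 9 arrays (grey WT, blue HE, red HO; one marker shape per probe set; grey bars are group means; each panel has its own axis, and none starts at 0). The 1416218_x_at points of Rpl37a lie at 8.51 to 9.86 in WT and at 10.37 to 11.01 in the transgenic groups, and those of its other probe sets between 14.43 and 15.24.

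Rpl7, a large-subunit protein that binds RNA, split in the same way among 3 probe sets. At 1426163_x_at the signal was 13.64, 13.33 and 13.25 on WT, 13.74, 13.81 and 13.29 on HE and 13.87, 14.20 and 13.74 on HO. Every HO array was above every WT array, by 0.53 ± 0.18 (interval 0.13 to 0.93, unadjusted p = 0.0139, adjusted p = 0.992 by limma). At 1426162_a_at HO minus WT was 0.24 ± 0.14 and at the brightest, 1415979_x_at, it was -0.01 ± 0.15. The difference between 1426163_x_at and 1415979_x_at was 0.54 ± 0.18, with an unadjusted p of 0.0105 and an adjusted p of 0.796.

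Rpl35, a protein near the exit of the nascent chain, had 6 tested probe sets, of which 5 gave HO minus WT between -0.09 and 0.20. The remaining one, 1454833_at, was at 9.73, 9.21 and 8.59 on WT, 9.24, 10.45 and 9.06 on HE and 9.45, 8.74 and 8.84 on HO. Its HE minus WT of 0.40 ± 0.37 and HO minus HE of -0.57 ± 0.37 both rested on HE replicate 2, the highest array. Without it they were -0.027 and -0.14. With HO replicate 2 counted as HE, HO minus HE was -0.23.

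Rpl13a, whose product is also known from the control of inflammatory messenger RNAs, had 4 tested probe sets. At 1433928_a_at it was 10.93, 11.00 and 10.89 on WT, 10.84, 10.93 and 10.82 on HE and 11.09, 11.23 and 11.06 on HO. HO lay above both other groups, by 0.26 ± 0.12 over HE (interval 0.01 to 0.52, unadjusted p = 0.044, adjusted p = 0.9998 by limma). HO replicate 2 was the highest array, and with it counted as HE, as its description would have it, HO minus HE was 0.12 and the groups overlapped. HO minus HE was 0.06 to 0.16 at its other probe sets. Rpl27 1416099_at was at 14.44, 14.08 and 14.03 on HE and 14.45, 14.67 and 14.45 on HO, a difference of 0.34 ± 0.15 (unadjusted p = 0.0474). With HO replicate 2 counted as HE it was 0.15, and the groups overlapped. The other Rpl27 probe sets gave 0.13 and 0.23, and WT, at 14.52, 14.48 and 14.19, overlapped both groups.

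The stalk proteins Rplp0 and Rplp2, which recruit the elongation factors, differed little. Rplp0 was at 14.62, 14.36 and 14.37 on WT, 14.56, 14.36 and 14.29 on HE and 14.36, 14.61 and 14.62 on HO. The HO minus WT difference was 0.08 ± 0.14 (interval -0.23 to 0.39). Rplp2 was at 14.84, 14.99 and 14.79 on WT, 15.13, 14.98 and 14.86 on HE and 14.93, 15.19 and 14.96 on HO, a difference of 0.15 ± 0.13 for HO minus WT. The groups overlapped at both genes.

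Rpl11, which binds Mdm2 when ribosome assembly is disturbed, was at 13.55, 13.82 and 13.32 on WT, 13.53, 13.53 and 13.28 on HE and 13.60, 13.72 and 13.43 on HO. Its HO minus WT difference was 0.02 ± 0.16 and its HE minus WT difference -0.12 ± 0.16. Rpl8, a protein near the catalytic centre, gave -0.23 ± 0.18 in HE against WT and 0.29 ± 0.18 in HO against HE, which was -0.013 with HO replicate 2 counted as HE. Rpl39, a short protein of the exit tunnel, gave 0.15 ± 0.23 in HO and 0.28 ± 0.23 in HE against WT. WT replicate 1 was its lowest array, at 9.74 against 10.41 to 10.83 on the rest, and without it these were -0.17 and -0.04. Rpl41, the smallest ribosomal protein, gave 0.14 and 0.26 at its brighter probe sets and -0.03 at 1454639_x_at. None of these had an unadjusted p under 0.05.

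In the small subunit, Rps10 had 5 tested probe sets, 4 of them with HO minus WT between 0.09 and 0.17. Rps10 lies near the messenger RNA entry and is marked with ubiquitin on stalled ribosomes. At the fifth, 1439374_x_at, the signal was 10.58, 10.71 and 10.46 on WT, 11.21, 10.24 and 10.43 on HE and 12.00, 11.45 and 10.82 on HO. All HO arrays were above all WT arrays, while HE overlapped both. HO was at 1.79 times WT, a difference of 0.84 ± 0.30 (interval 0.19 to 1.49, unadjusted p = 0.0162, adjusted p = 0.992 by limma). HO minus HE was 0.80 ± 0.30 (unadjusted p = 0.021), and 0.58 with HO replicate 2 counted as HE. Within numbers 1, 2 and 3, HO minus WT was 1.42, 0.74 and 0.36. HO replicate 1 was the highest array, and without it HO minus WT was 0.55. The difference from the brightest probe set, 1438723_a_at, was 0.67 ± 0.28, with an unadjusted p of 0.0363 and an adjusted p of 0.816.

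Rps27, a zinc-binding protein of the small subunit, was the lowest of all members in both comparisons with WT. Its only probe set was at 9.87, 9.85 and 10.44 on WT, 9.65, 9.49 and 9.66 on HE and 9.68, 9.42 and 9.93 on HO. HE was below WT on every array, by -0.45 ± 0.19 (interval -0.86 to -0.05, unadjusted p = 0.0322, adjusted p = 0.9997 by limma). HO overlapped WT, at -0.38 ± 0.19 (unadjusted p = 0.0677). WT replicate 3 was the highest array, although it was the lowest for most members, and without it the differences were -0.26 for HE and -0.18 for HO. Its paralog Rps27l had 3 tested probe sets, which gave 0.01, -0.03 and -0.15 in HO against WT and -0.13, -0.24 and -0.15 in HE against WT.

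Rps6, whose product is the substrate of the S6 kinases, was at 10.95, 10.85 and 10.74 on WT, 10.62, 10.89 and 10.54 on HE and 10.92, 10.94 and 10.69 on HO. HO minus WT was 0.01 ± 0.14 (interval -0.30 to 0.31). Rps19, a gene mutated in Diamond-Blackfan anaemia, was at 14.25, 14.36 and 13.60 on WT, 14.20, 14.04 and 13.84 on HE and 13.94, 14.37 and 14.06 on HO. Its HO minus WT difference was 0.06 ± 0.20. Number 3 held its lowest array in WT and HE.

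Rpsa, also known as the laminin receptor, showed how far 2 probe sets of a gene can lie apart in signal. At 1448245_at it was at 14.29, 14.65 and 14.19 on WT, 14.37, 14.25 and 14.47 on HE and 14.49, 14.55 and 14.28 on HO, with 0.06 ± 0.15 for HO minus WT. At 1416196_at it was at the floor on 8 of the 9 arrays and was not tested.

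Other small-subunit genes had from 2 to 5 tested probe sets. Rps9, whose relatives in yeast and bacteria help keep decoding accurate, had 0.28 ± 0.15 at 1433689_s_at and -0.02 ± 0.22 at 1434624_x_at in HO against WT. Rps15 1416088_a_at gave 0.24 ± 0.18 and its other probe set 0.12. Rps28 gave 0.17, 0.04 and -0.13, and Rps20 gave 0.12 and -0.13. The 5 probe sets of Rps24 ran from -0.04 to 0.19, and HO and HE did not overlap at a pair of them, in opposite directions: 1428530_x_at was higher in HO by 0.22 and 1456628_x_at lower, at -0.13. With HO replicate 2 counted as HE these were 0.10 and -0.098. None of these had an unadjusted p under 0.05.

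The paralogs differed in whether they passed the filter on low signal. Rpl22, a protein that is dispensable for most translation, was at 13.28, 13.49 and 12.95 on WT, 12.99, 12.98 and 12.97 on HE and 13.36, 13.37 and 12.88 on HO at 1416603_at. That was -0.26 ± 0.17 in HE against WT, against 0.02 ± 0.13 at 1448398_s_at. Its paralog Rpl22l1, which can take its place, gave -0.20 ± 0.19 in HE and -0.03 ± 0.19 in HO against WT. Rpl3l, at 5.27 to 7.07 over the 9 arrays, and Rpl39l, with a mean of 5.25, were under the filter.

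Disagreement between probe sets of a gene was tested at 39 pairs in 19 genes, each against the brightest. No member pair passed an adjusted p of 0.05 (0% of 4292 pairs in each comparison). At an unadjusted p under 0.05, there were 3 of 39 in HO against WT (7.69%, against 5.89% of all pairs), namely the pairs of Rpl37a, Rpl7 and Rps10 given above. HE against WT gave 1 (2.56%, against 3.54%), Rpl37a, and HO against HE gave 1 (2.56%, against 3.47%), Rps10. The range of HO minus WT over the probe sets of a gene was 1.34 for Rpl37a, 0.75 for Rps10, 0.54 for Rpl7, 0.36 for Rpl35 and at most 0.31 for the other 15 genes.

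**Figure D5:**
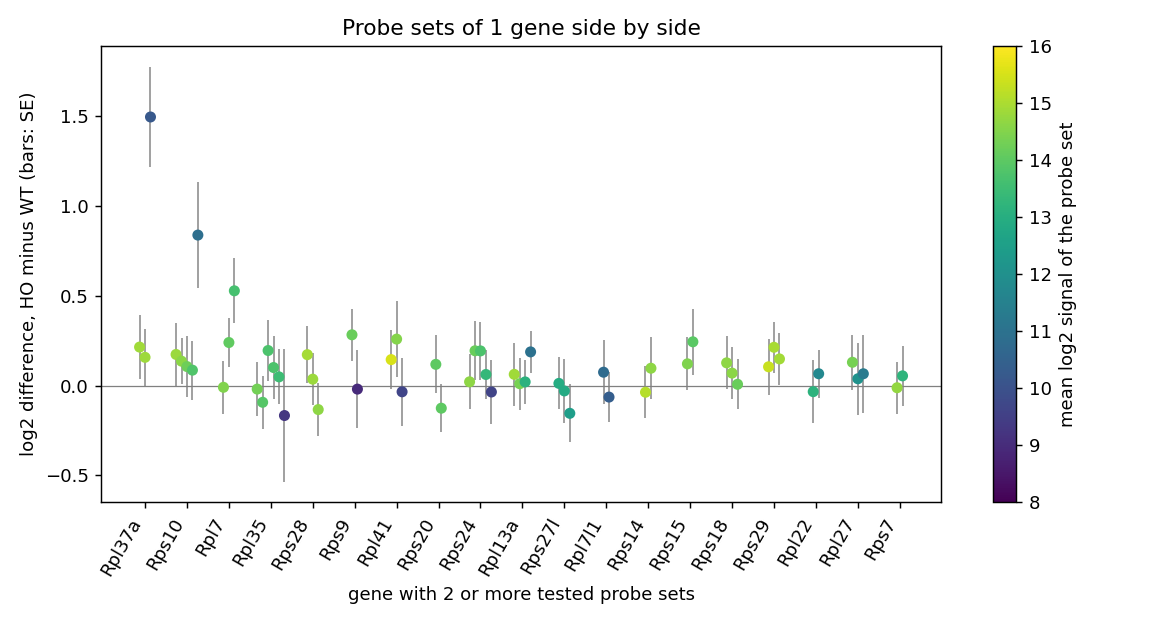
Log2 difference of HO minus WT (point, with its SE as a bar) at every tested probe set of the 19 genes with 2 or more, ordered by the range within the gene and coloured by mean log2 signal. Within a gene, probe sets run from brightest on the left to dimmest; the dimmest probe sets of Rpl37a (1.50) and Rps10 (0.84) lie apart from the rest of their gene.

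As a description over the 9 arrays, which share their scaling and their genotype groups, Pearson's r between the probe sets of a pair had a median of 0.72 for members and 0.20 for all pairs. Between member probe sets at large, not only those of 1 gene, the median r was 0.57. The r of a pair was above 0.8 in 14 of 39 member pairs (35.9%, against 4.26% of all), such as those of Rps28 (0.90), Rpl35 (0.89) and Rpl37a (0.88). It was below 0.3 in 6 pairs, of Rpl7l1 (-0.75), Rpl41 (-0.34), Rpl22 (-0.26), Rps9 (0.15), Rpl35 (0.18) and Rps28 (0.27). The median of all pairs, 0.20, also lay below that bound. At members with a mean log2 of 13 or more, HO minus WT ran from -0.13 to 0.53, and at those under 13 from -0.38 to 1.50.

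Other genes of the ribosome and of translation were read from lists. Of the mitochondrial ribosomal proteins, which build the ribosome of the mitochondrion, 0 of 102 tested probe sets passed an adjusted p of 0.05 in any comparison with limma, and in HO against WT 2 were higher and 2 lower at an unadjusted p under 0.05, which 4.49% of all probe sets had (1.69% higher). Their median HO minus WT was -0.0078, and their median deviation on WT replicate 3 was -0.074. Of 47 probe sets for ribosome biogenesis, 0 passed, with a median of 0.034. Polr1b, a subunit of RNA polymerase I, had the lowest p of that list, with HO minus WT of 0.58 ± 0.15 (unadjusted p = 0.00208, adjusted p = 0.992) and HO minus HE of 0.67 ± 0.15. Of 67 for translation factors, 0 passed, with a median of 0.069. Pabpc1, the poly(A)-binding protein, and Naca, which binds nascent chains, gave 0.29 ± 0.12 and 0.29 ± 0.13, and the list was at -0.12 on WT replicate 3. Of 11 for the S6 kinases and their pathway, 0 passed, with a median of -0.13, and Mtor gave -0.33 ± 0.21.

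The course of the member median over the arrays, with group means removed, was also that of some genes outside the family. The 5 tested probe sets most like it, by Pearson's r over the 9 arrays, were those of Coa3 (0.97), Elf5 (0.97), Hnrnpk (0.97), Sil1 (0.97) and Yipf2 (0.97). They were picked as the highest of all tested probe sets. Lists not picked in this way also followed the member median over the 9 arrays. The r of their median deviation was 0.84 for mitochondrial ribosomal proteins, 0.82 for translation factors and 0.60 for ribosome biogenesis. It was 0.011 for the S6 kinases and their pathway. Over the cell type lists it ran from -0.57 (proliferating cells) to 0.76 (alveolar type II cells). The course was thus not particular to the members. Coa3, a mitochondrial assembly factor, was at 12.15 on WT replicate 3 and 12.59 on HO replicate 2.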

How the data were processed

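As deposited, each probe set has 1 intensity on each array, on a linear scale. Judged by the values, the authors had brought all arrays to 1 common mean, computed without the top and bottom 2%. Which software summarised the probes was not stated in the sources used here. Values below a floor, the 5th percentile (25.5), were set to it before log2 was taken. Control probe sets (64) and dim ones, whose mean log2 fell short of the 40th percentile (8.90), were dropped, and 13576 remained. With limma 3.58.1 in R 4.3.3, 1 model with a mean per genotype covered the 9 arrays (6 residual degrees of freedom). Adjustment was Benjamini-Hochberg over all 13576, or over the 4292 pairs. The functions were tested on simulated data. Arrays give no count depth.

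In the platform annotation 20380 probe sets have 1 symbol, 691 several and 1555 none. Promoters came from RefSeq (GRCm38.p6), and genes missing there were Rps14, Rps4l, Rps20, Rps29, Rpl7 and Rpl8. Named probe sets were fixed members, the 6 highest and 6 lowest per comparison, the 8 genes of widest range and the 6 of lowest p over replicate numbers, with up to 3 of lowest p per list. Members and lists were chosen with earlier results of these data known.

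Deviations of arrays with the same replicate number correlated at 0.19, 0.14 and 0.28 for HO with WT, which pairs them by the criterion of 0.1 for every number; HE with WT (0.30, 0.05 and 0.04) and HO with HE (0.16, 0.15 and 0.03) did not meet it. Alternatives were the scaling, the filter, the floor, a replicate block, a trended and robust eBayes and each array left out.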

Additional observations from a re-analysis of the deposited data

How the results depend on the processing

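No member and no member pair passed the threshold under any alternative run. With the replicate block the members past the threshold stayed at 0 in each comparison, so the pairing changed no call. The member medians were 0.072, -0.014 and 0.085 for HO minus WT, HE minus WT and HO minus HE. The block cannot change these, because every number holds each genotype once. Over all pairs in HO against WT, leaving out 1 array gave 0 to 1 past the threshold (1 without WT replicate 1 or 3). The count of probe sets that differ over replicate numbers, 2, became 1 with quantile normalization, with median centring and with the filter at the 60th percentile, and 0 with no filter or, chosen after seeing the data, with HO replicate 2 counted as HE. Leaving out 1 array moved the members higher in HO than WT from 64 to between 35 and 76, in HE than WT from 38 to between 18 and 66, and in HO than HE from 67 to between 48 and 71. The medians ran from -0.035 to 0.18, -0.10 to 0.097 and 0.026 to 0.14. With HO replicate 2 counted as HE, 58 were higher in HE than WT and 30 in HO than HE, whose median was -0.032. Without WT replicate 3 and HO replicate 2 together, also added later, 18 were higher in HO than WT and 18 in HE than WT. The cause was not tested. The number of arrays limits detection. A typical unadjusted interval of a member reached 0.34 to either side, and differences well above that size could be missed at the adjusted threshold. Rpl37a 1416218_x_at, at 1.50 ± 0.28 in HO against WT, had an adjusted p of 0.602 by limma. Strong signals were not checked for saturation.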
